A study of Homo sapiens with 12 samples.

Results

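The TFIIS family comprises TCEA1, TCEA2, TCEA3, TCEANC and TCEANC2, 5 of the 26485 genes counted by RNA-seq in HEK293 cells, a human embryonic kidney line. All 5 passed the filter on low counts, among 17176 genes tested. TCEANC brought the family into view: it was selected on its difference between NC and control, where it ranked 2 of 1018 genes called higher with NC, counting those whose mean log2 CPM (counts scaled to library size) reached 1 and that were higher in all 3 replicates. PEG10 itself ranked 1. The other 4 members were chosen by name. NC against control is therefore given as a description, with no test for any member, and no test is given for TCEANC in the other contrasts that contain the control or NC libraries.

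PEG10 is a gene derived from a retrotransposon, and its transcript is read as a gag protein or, after a frameshift, as gag-pol. Wild-type HEK293 cells received 1 μg of plasmid for 48 hr, coding for PEG10 gag-pol, PEG10 gag, the liberated nucleocapsid fragment (NC) or, in the control, LifeAct-Dendra2, an actin-binding peptide joined to a fluorescent protein. The methods call the negative control pCDNA in 1 place, and the paper's list of constructs gives a LifeAct plasmid built in a pCDNA vector. Whether both names mean the same plasmid is not stated. The labels name LifeAct-Dendra2 for every control library and were followed. Each construct had 3 libraries of poly(A) RNA, numbered 1 to 3, and the comparison of constructs asks whether the freed NC fragment changes gene expression. All groups share the cell line and transient overexpression from a plasmid. The p-values measure the spread left between libraries of this single line after construct and library number are fitted, over all 12 libraries together.

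TFIIS is a transcription elongation factor of RNA polymerase II. When the polymerase backtracks and stalls, TFIIS reaches into its active site with a zinc ribbon and stimulates the polymerase to cleave the protruding RNA, so that elongation can resume. TCEA1 is the broadly expressed form, TCEA2 is best known from testis and TCEA3 is more restricted between tissues, while TCEANC and TCEANC2 are named for the N-terminal and central domains they share with TFIIS.

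The zinc ribbon divides the family. In the proteins encoded by the reference transcripts, the spacing of 4 cysteines that marks the ribbon was found once in each of TCEA1 (residues 263 to 294 of 301), TCEA2 (261 to 292 of 299) and TCEA3 (310 to 341 of 348), each time with an aspartate followed by a glutamate. It was not found in TCEANC (351 residues) or TCEANC2 (208 residues). TCEA1 and TCEA2 were identical at 68.1% of 295 aligned residues, TCEA1 and TCEA3 at 63.2% of 291 and TCEA2 and TCEA3 at 60.1% of 298. TCEANC was 36.9%, 35.1% and 35.1% identical to TCEA1, TCEA2 and TCEA3, and TCEANC2 was 33.7%, 28.2% and 36.7%. TCEANC and TCEANC2 matched each other at 31.9% of 185 aligned residues, so they were no closer to each other than TCEANC was to the ribbon-bearing members.

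The promoters of TCEANC and TCEANC2, the members without the ribbon, are shown as a description. A relation between these sequences and the counts was not tested. RefSeq promoter entries (GRCh38.p14) were matched by symbol, and those of TCEANC, TCEANC2 and TCEA2 are described. TCEA3 had no entry, and TCEA1 was left out of this description. The 250 bases printed, 5′ to 3′ on the plus strand, are chrX:13652891-13653140 for TCEANC and chr1:54053358-54053607 for TCEANC2, and capitals mark matches, on either strand, to the GC box GGGCGG (or CCGCCC) and the CCAAT box (CCAAT or ATTGG).
TCEANC: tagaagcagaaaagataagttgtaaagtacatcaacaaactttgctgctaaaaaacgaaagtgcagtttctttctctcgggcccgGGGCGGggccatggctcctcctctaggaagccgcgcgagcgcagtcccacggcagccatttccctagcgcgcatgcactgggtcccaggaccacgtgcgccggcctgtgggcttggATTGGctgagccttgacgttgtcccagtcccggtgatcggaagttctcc
TCEANC2: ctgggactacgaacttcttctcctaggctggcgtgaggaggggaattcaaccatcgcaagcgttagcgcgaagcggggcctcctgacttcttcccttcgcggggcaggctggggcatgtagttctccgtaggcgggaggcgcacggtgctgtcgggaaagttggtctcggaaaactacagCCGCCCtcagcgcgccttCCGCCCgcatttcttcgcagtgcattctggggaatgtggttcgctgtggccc

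The TCEANC window held 1 GC box, 1 CCAAT box and 17 CpG dinucleotides at a GC content of 57.6%. The TCEANC2 window held 2 GC boxes, no CCAAT box and 22 CpG at 62.0% GC, and neither window held the TATA box TATAAA. Over all 35116 promoter windows of this length the median GC content was 58.0%, and 42.6% held a GC box, 32.0% a CCAAT box and 10.7% a TATA box. The motifs do not overlap each other, and a match describes letters, not a bound site. The TCEA2 windows, at 60.0% and 73.2% GC, held no GC, CCAAT or TATA box. In GENCODE release 44 the last 29 bases of the TCEANC window and the last 24 of the TCEANC2 window lie inside the gene.

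Transfection was visible in the PEG10 counts, which averaged 11101 normalized counts in control and 115869 with NC, and reached 1751950 for gag-pol and 2013544 for gag. The NC insert codes for only a part of gag, and the gag-pol insert is longer than gag. These counts are not scaled to insert length, so they do not rank the constructs by expression. A normalized count is a raw count scaled by its library's effective size to the average depth, and library totals ran from 30625725 to 45316749 counts. The kidney-lineage genes PAX2, LHX1 and EYA1 were counted in every group, PAX8 had at most 10 counts in a library, and markers of blood (PTPRC, at most 6) and endothelium (CDH5, at most 9) were near 0. The hepatocyte gene ALB had 6 to 50 counts in a library, with normalized means of 40.5 (control), 9.66 (gag-pol), 33.0 (gag) and 13.9 (NC). The muscle gene MYOD1 had 6 to 43 counts, with means of 26.8, 25.1, 17.2 and 37.4 in that order. The part of these low counts in the results was not tested. Libraries of one construct were further apart than counting noise allows, with a chi-square per degree of freedom between 34.0 and 114 over 12 pairs. These values include the PEG10 counts, and the libraries of each pair differ in replicate number. In bulk RNA a large change in a few cells and a small change in all of them cannot be told apart.

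Per kilobase of exon, the family fell into an upper pair, TCEANC2 alone and a lower pair, an order kept in all 12 libraries. TCEA1 had a median of 648 normalized counts per kilobase (range 591 to 807) and TCEA2 a median of 577 (351 to 715). Their ranges overlap. TCEANC2 followed at 57.9 (44.6 to 70.6), below every TCEA1 and TCEA2 value and above every value of the last pair, TCEA3 at 16.6 (7.95 to 23.98) and TCEANC at 14.8 (7.10 to 26.7). By mean log2 CPM, which takes no account of length, TCEA1 stood at percentile 81.4 of the tested genes, TCEA2 at 78.7, TCEANC2 at 48.04, TCEANC at 23.2 and TCEA3 at 19.5. TCEA3 and TCEANC overlap over the 12 libraries. With control their means per kilobase were 17.2 and 9.33, and with NC 16.9 and 24.02. By mean, the lowest member of the family in control was thus TCEANC and in NC it was TCEA3. In NC replicate 3, however, TCEANC (19.1) was below TCEA3 (23.98). The reversal of the means includes the values TCEANC was selected on and was not tested.

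**Figure D1:**
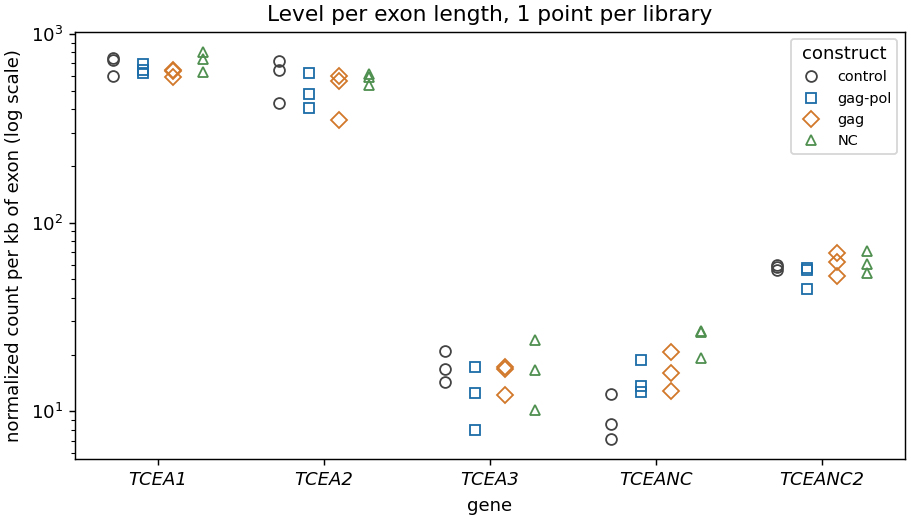
Normalized counts per kilobase of exon (log axis) for the 5 members in each of 12 libraries, with a symbol and colour for each construct. TCEA1 and TCEA2 lie highest, TCEANC2 between 44.6 and 70.6, and TCEA3 and TCEANC share the lowest range.

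The low members were also the noisy ones. The biological coefficient of variation was 7.17% for TCEA1, 8.77% for TCEA2, 9.24% for TCEANC2, 19.1% for TCEANC and 23.7% for TCEA3, beside 10.7% over all genes. Counting alone gives 10.5% for TCEANC and 13.3% for TCEA3 but 1.86% for TCEA1. Counting noise was thus below the spread between replicates for each of these 3 genes.

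TCEA1, the general elongation factor, lies on chromosome 8 (GRCh38, GENCODE release 44, 53966552 to 54022448, minus strand, 11 transcripts). Its normalized counts were 3135, 3211 and 2587 in control, 2976, 2794 and 2685 with gag-pol, 2788, 2732 and 2546 with gag and 3183, 3476 and 2698 with NC. The 4 groups overlap, and the highest library was only 1.37 times the lowest. Relative to control, TCEA1 differed by a log2 fold change of -0.07 ± 0.08 (SE) in gag-pol (95% interval -0.24 to 0.09, adjusted p = 0.590, edgeR) and -0.14 ± 0.08 with gag (adjusted p = 0.451), and with NC it was 0.07 ± 0.08, untested. TCEA1 was highest with NC relative to gag, by 0.21 ± 0.08 (0.05 to 0.37), where the adjusted p of 0.0716 missed the threshold of 0.05. That p was 0.0483 without control replicate 3 and 0.0226 without all libraries numbered 3, but 0.274 without NC replicate 2 and 0.426 without all libraries numbered 2, and over all alternatives it ran up to 0.513.

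TCEA2, the testis-associated form, spans 64049836 to 64072347 on the plus strand of chromosome 20, with 17 annotated transcripts. Its counts were 2065, 3077 and 3425 in control, 1939, 2300 and 2973 with gag-pol, 1680 and 2694 and 2864 with gag and 2558, 2831 and 2936 with NC. Within every construct replicate 1 was lowest and replicate 3 highest, and all groups overlap. Against the control of the same number, TCEA2 was lower with gag-pol in 3 of 3 pairs, at -0.24 ± 0.10 (-0.44 to -0.03), but the adjusted p was 0.120. With gag it was -0.25 ± 0.10 (adjusted p = 0.261), and with NC -0.0072 ± 0.10. NC stood above gag by 0.24 ± 0.10 (adjusted p = 0.102) and above gag-pol by 0.23 ± 0.10 (adjusted p = 0.432). The excess over gag in same-number pairs was 0.61, 0.07 and 0.04, so it rested mostly on replicate 1. It was 0.09 without NC replicate 1 (adjusted p = 0.610), 0.14 without gag replicate 1 (0.486) and 0.35 without NC replicate 3 (0.0347).

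TCEA3, the restricted form, is on the minus strand of chromosome 1 (23380909 to 23424748, 6 transcripts). Counts were 61.2, 52.3 and 76.3 in control, 29.2, 45.8 and 62.7 with gag-pol, 44.7, 61.7 and 62.8 with gag and 60.5, 37.2 and 88.1 with NC. The lowest library (gag-pol, replicate 1) and the highest (NC, replicate 3) differ 3.02-fold, yet the groups overlap in every comparison. Gag-pol against control gave a log2 fold change of -0.48 ± 0.32 (-1.16 to 0.19, adjusted p = 0.352), a wide interval. It was -0.15 ± 0.32 with gag (adjusted p = 0.894) and 0.42 ± 0.33 for NC against gag-pol (adjusted p = 0.712).

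TCEANC, on the plus strand of chromosome X (13653112 to 13681964, 10 transcripts, 5 exons in the reference transcript), is the member selected on its NC and control values. Raw counts were 46, 78 and 37 in control, 104, 73 and 89 with gag-pol, 95, 91 and 70 with gag and 146, 158 and 97 with NC. After normalization these were 47.7, 69.2 and 39.8 in control, 104.7, 71.2 and 76.5 with gag-pol, 114.8, 89.1 and 72.0 with gag and 149.7, 146.9 and 106.9 with NC. The 3 NC libraries lie above every control and gag-pol library but overlap gag, whose replicate 1 exceeds NC replicate 3. All 9 PEG10 libraries lie above the highest control library, gag-pol replicate 2 by the narrowest margin.

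The group means of TCEANC were 52.2 ± 15.2 (SD, n = 3) in control, 84.1 ± 18.02 in gag-pol, 92.0 ± 21.5 in gag and 134 ± 23.97 in NC libraries. As a description of the contrast it was selected on, TCEANC was 2.56 times control with NC, a log2 fold change of 1.35 ± 0.26, and higher in 3 of 3 same-number pairs, by 1.65, 1.09 and 1.43. Set against the same controls, gag-pol gave 0.69 ± 0.26 and gag 0.80 ± 0.26. With the same NC libraries, NC was 0.55 ± 0.25 above gag and 0.67 ± 0.25 above gag-pol. The contrast that shares no library with the selection is gag-pol against gag, where TCEANC differed by -0.11 ± 0.25 (-0.64 to 0.41, adjusted p = 0.836), and the interval spans changes in either direction.

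TCEANC2 lies on the plus strand of chromosome 1 (54053584 to 54112519, 5 transcripts). Its counts were 722, 709 and 680 in control, 701, 686 and 543 with gag-pol, 840 and 750 and 635 with gag and 859, 734 and 654 with NC. Within each construct replicate 3 was lowest, and the groups overlap in every comparison. Gag-pol against control gave -0.14 ± 0.11 on the log2 scale (adjusted p = 0.437) and gag gave 0.07 ± 0.11 (adjusted p = 0.858), while NC, untested, gave 0.08 ± 0.11. Between gag-pol and gag it was -0.20 ± 0.11 (-0.43 to 0.02, adjusted p = 0.259), the contrast in which TCEANC could be tested as well.

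**Figure D2:**
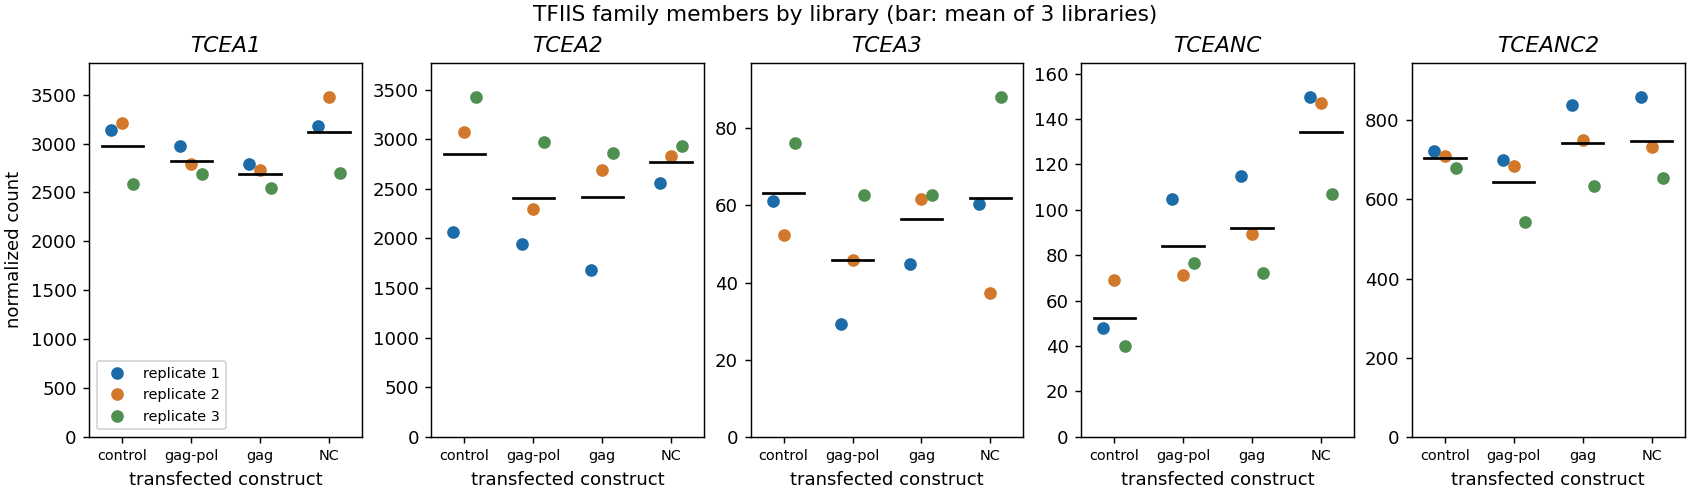
Normalized counts of each member (linear axes from 0, one panel per gene) in the 12 libraries, with points coloured by replicate number and a bar at the mean of 3 libraries. The NC points of TCEANC, 106.9 to 149.7, lie above its control points, 39.8 to 69.2, the contrast it was selected on, and in the other panels these groups overlap.

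Across the family, no member passed the threshold in any tested contrast (edgeR, quasi-likelihood, with Benjamini-Hochberg adjusted p over all tested genes). The count was 0 of 4 for gag-pol against control, where 11.3% of all genes were called, 0 of 4 for gag against control (1.08%), 0 of 5 for gag-pol against gag (6.46%), 0 of 4 for NC against gag (16.9%) and 0 of 4 for NC against gag-pol (0.0873%). At an unadjusted p under 0.05, TCEA2 passed in 4 of these contrasts and TCEA1 in 1, NC against gag. Of all genes, 27.3% passed it in gag-pol against control, 13.7% in gag against control, 30.8% in NC against gag and 9.92% in NC against gag-pol. DESeq2 called 0 in each as well. In NC against control 11.2% of all genes were called, 6.04% higher and 5.15% lower; nothing is read from it for TCEANC, whose choice used that contrast.

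The libraries of TCEANC did not overlap between groups in 4 contrasts, all of which contain the control or NC libraries it was selected on, so nothing is read from them. The share of all genes without overlap was 13.5% for gag-pol against control, 7.09% for gag against control, 9.50% for NC against control and 6.92% for NC against gag-pol. In gag-pol against gag (12.7% of all genes) and NC against gag (14.4%) no member was free of overlap.

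**Figure D3:**
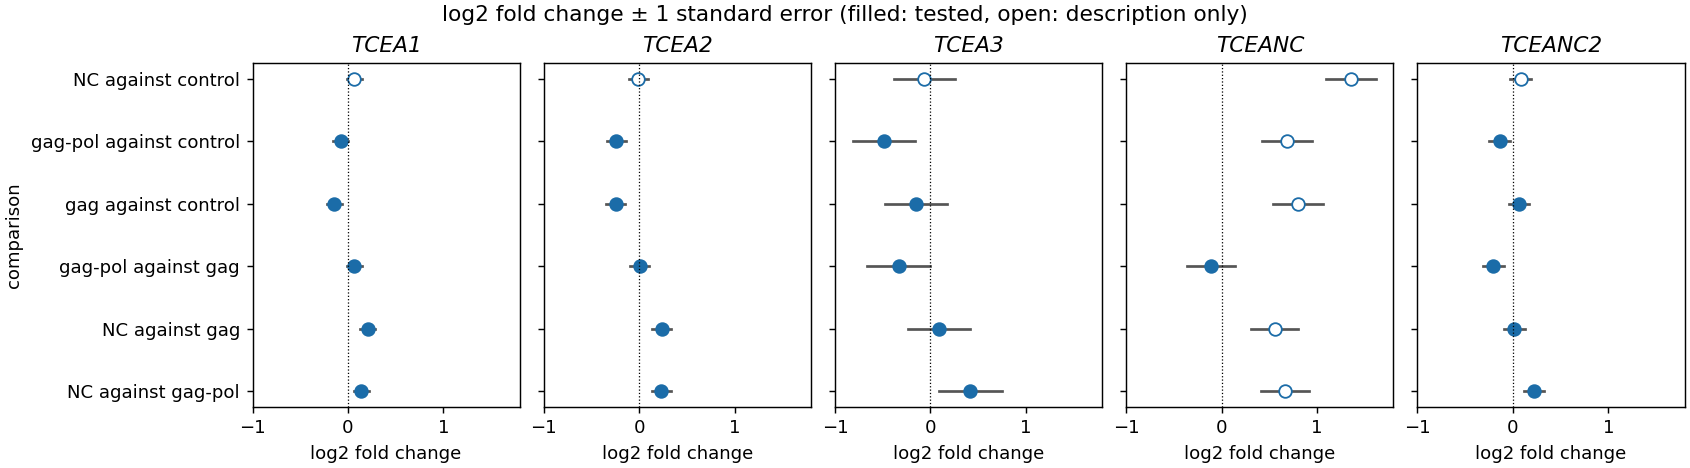
Log2 fold change ± 1 standard error for each member in the 6 contrasts, filled where a test was allowed and open where it was not. TCEANC lies to the right of 0 wherever it is open, while the other members stay between -0.48 and 0.42.

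Replicate number was called for 3 of 5 members. Libraries of one number resemble each other across constructs, and 52.8% of all genes differed between numbers. TCEA2 averaged 2061 in the libraries numbered 1, 2725 in number 2 and 3049 in number 3 (adjusted p = 4.7e-05, edgeR). TCEA1 was lower in number 3 (3020, 3053 and 2629, adjusted p = 0.0205), as was TCEANC2 (781, 720 and 628, adjusted p = 0.0231). TCEANC had means of 104, 94.1 and 73.8 (adjusted p = 0.156) and TCEA3 of 48.9, 49.3 and 72.5 (adjusted p = 0.119). TCEA1 and TCEA2 thus differed in opposite directions between numbers 1 and 3, and the share of members called is near the background.

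**Figure D4:**
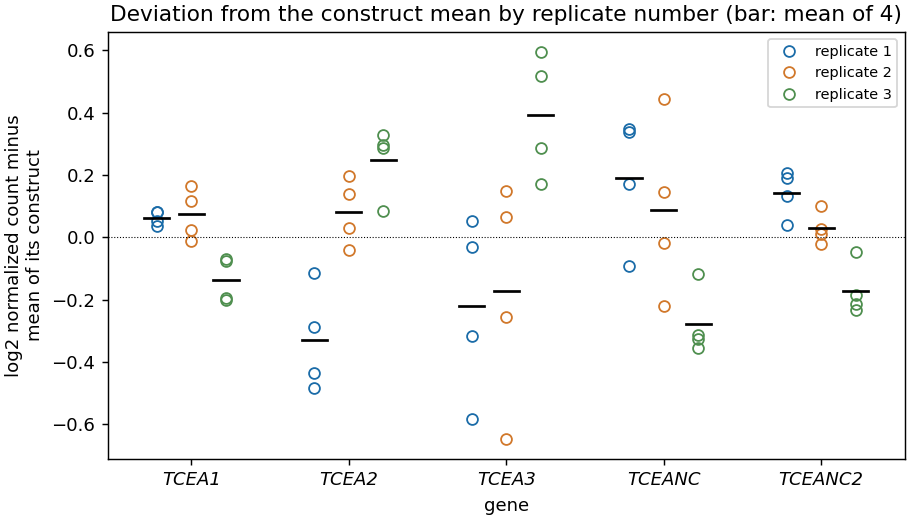
Log2 normalized count of each member minus the mean of its construct, by replicate number, with 4 libraries per number and a bar at their mean. The TCEA2 points lie lowest in number 1 and highest in number 3, and TCEA1 and TCEANC2 lie lowest in number 3.

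Around TCEANC, the nearest gene downstream on the same strand is RAB9A, a GTPase of endosome-to-Golgi transport, 7163 bases away, and the nearest upstream is EGFL6, 19536 bases away, with at most 6 counts in a library. Mean normalized counts of RAB9A were 1361 (control), 1334 (gag-pol), 1650 (gag) and 1312 (NC). It was lower with NC than with gag by 0.33 on the log2 scale (-0.33 ± 0.09, adjusted p = 0.0113), and 0.05 below control with NC (-0.05 ± 0.09, adjusted p = 0.741). The call against gag was lost without gag replicate 1 (adjusted p = 0.0901), NC replicate 1 (adjusted p = 0.0557) or all libraries numbered 1 (adjusted p = 0.205). RAB9A was also lower with gag-pol than with gag (-0.30 ± 0.09, adjusted p = 0.0339), a call kept in 5 of 12 fits that leave out 1 library. Both of these RAB9A calls were lost in the fit without the replicate number. With gag against control RAB9A was 0.28 ± 0.09 and not called (adjusted p = 0.122, edgeR). By group mean, RAB9A was highest with gag, and TCEANC with NC.

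Genes with the most similar profile were sought by the Pearson correlation of log2 CPM over the 12 libraries after the means of the replicate numbers were removed, among 13415 genes. The points share libraries and constructs, so these values are a description. For TCEANC they were CBY1 (r = 0.949), NDUFS4 (0.904) and TRIB3 (0.899), and for TCEANC2 ZNF770 (0.915), ARHGAP30 (0.910) and AGA (0.908). TCEA1 went with RAC1 (0.969), EIF2AK1 (0.957) and SSRP1 (0.957), the last a subunit of the FACT histone chaperone. TCEA2 was closest to RFNG (0.923), RABL6 (0.920) and GALT (0.909), and TCEA3 to KCNN3 (0.933), BNIPL (0.930) and LINC01021 (0.923). No gene was shared between these lists.

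The wider elongation machinery was counted in 64 genes: 12 RNA polymerase II subunits, 42 elongation factors and 10 relatives with a TFIIS-type domain, all tested. Gag-pol and NC were compared with the same 3 controls. With gag-pol 11 of 64 were called (17.2%, beside 11.3% of all genes), 2 higher and 9 lower, where 5.48% of all genes were called higher and 5.83% lower. With NC 13 were called (20.3%, beside 11.2%), 3 higher and 10 lower, where 6.04% of all genes were called higher and 5.15% lower. With gag 0 were called by edgeR and 0 by DESeq2, where 0.699% of all genes were called higher and 0.384% lower. At an unadjusted edgeR p under 0.05 there were 6 of 64 (9.38%), beside 13.7% of all genes. The median log2 fold change of the 64 was -0.03 with gag-pol and -0.07 with NC, beside -0.0014 and 0.0040 over all genes.

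Among polymerase subunits, POLR2A, the catalytic subunit, fell by 0.42 on the log2 scale with gag-pol (-0.42 ± 0.09, adjusted p = 0.00423, edgeR; 0.106 when all libraries numbered 1 were left out) and was -0.37 with NC (adjusted p = 0.0107), a call lost without control replicate 3 (adjusted p = 0.0595) or NC replicate 3 (0.0512). POLR2D was 0.28 higher with gag-pol (adjusted p = 0.0476) and POLR2I 0.29 higher with NC (adjusted p = 0.0294), calls kept in 5 and 8 of 12 fits that leave out 1 library. POLR2D was kept in 2 of 7 other settings, being lost with RLE scaling, with 10 counts required in every library, with PEG10 left out, with 6 libraries only and without the replicate number. POLR2I was kept in 6 of 7. With gag, POLR2A was -0.21 relative to control (adjusted p = 0.278).

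Among elongation factors, HEXIM1, which holds the kinase P-TEFb inactive, fell by 0.53 with gag-pol (-0.53 ± 0.11, adjusted p = 0.00442) and by 0.64 with NC (-0.64 ± 0.11, adjusted p = 0.00206), and both calls held in all 12 such fits. SUPT5H, the large subunit of the pausing factor DSIF, fell by 0.58 with NC (-0.58 ± 0.11, adjusted p = 0.00315) in all 12 fits, and by 0.48 with gag-pol (adjusted p = 0.00702), where it missed without gag-pol replicate 3 (adjusted p = 0.0528). HEXIM2, the paralog of HEXIM1, fell by 0.59 with gag-pol (adjusted p = 0.0208) but not without control replicate 3 (0.162) or gag-pol replicate 1 (0.133). SUPT6H, a histone chaperone, fell by 0.29 with NC (adjusted p = 0.0273), a call kept in 9 of 12 fits and lost without control replicate 3 (0.239), NC replicate 1 (0.0899) or NC replicate 3 (0.103). SUPT16H, the large subunit of FACT, went the other way, at 0.26 with gag-pol (adjusted p = 0.0307) and 0.27 with NC (adjusted p = 0.0243), in 7 and 8 of 12 fits. Both SUPT16H calls were lost whichever replicate number was left out, with adjusted p from 0.0532 to 0.174 (gag-pol) and 0.0762 to 0.133 (NC).

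Among relatives with a TFIIS-type domain, ELOA (listed under its older symbol TCEB3), the active subunit of elongin, was -0.29 with gag-pol (adjusted p = 0.0335) and -0.31 with NC (adjusted p = 0.0253), in 8 of 12 fits each. DIDO1, which carries a TFIIS-type central domain, was -0.26 with gag-pol (adjusted p = 0.0389), in 5 of 12 fits, and -0.33 with NC (adjusted p = 0.0113), in 10 of 12. PSIP1, a chromatin-binding coactivator with a TFIIS N-terminal-type domain, was 0.28 with NC (adjusted p = 0.0229), in 8 of 12 fits. Whichever replicate number was left out, the ELOA call with gag-pol was lost (adjusted p from 0.0582 to 0.303). The PSIP1 call with NC was lost in the same way (0.0740 to 0.128). None of the calls of these relatives held in the fit without the replicate number.

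**Figure D5:**
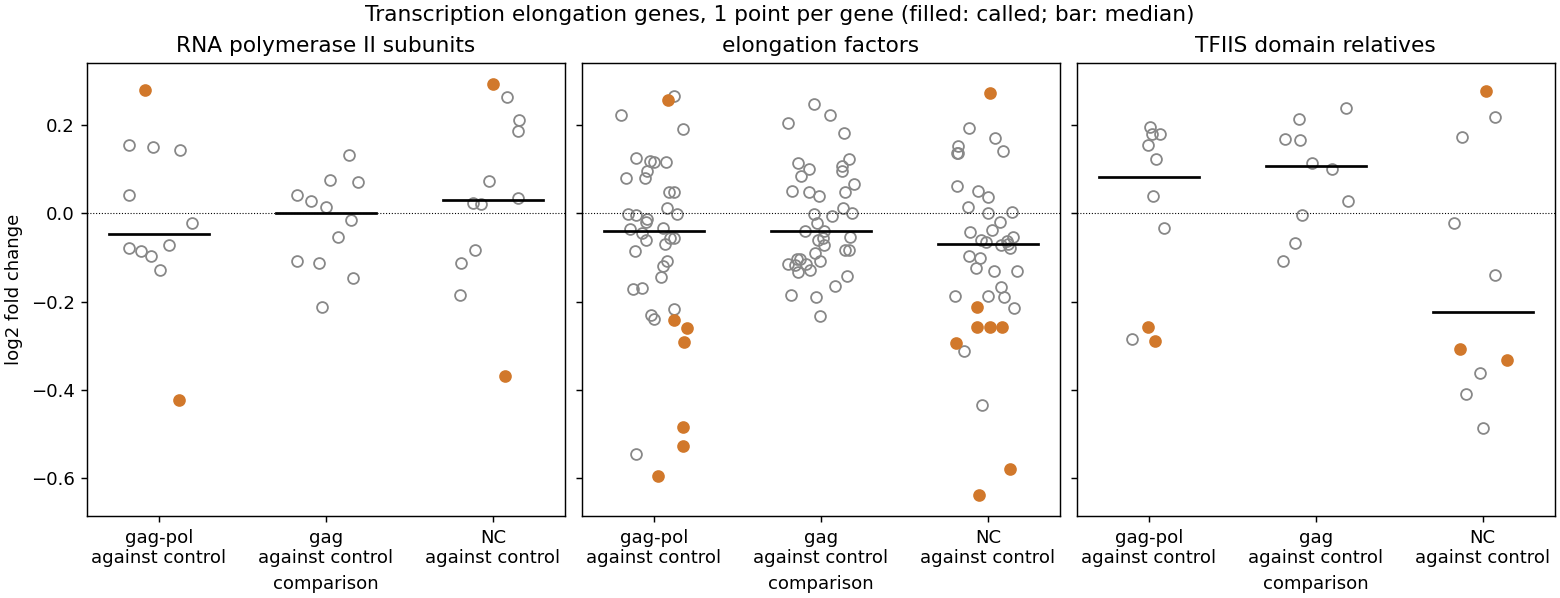
Log2 fold change against control of the 64 elongation genes, 1 point per gene in 3 panels by list, filled where called and with a bar at the median. The called genes lie mostly below 0 with gag-pol (9 of 11) and NC (10 of 13), and none is called with gag. Of all genes, 5.48% are called higher and 5.83% lower with gag-pol, 6.04% and 5.15% with NC, and 1.08% in either direction with gag.

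The counts of several members carry limits that lie in their genes. TCEA1 has 4 processed pseudogenes named after it in the annotation, none of them a row of the table, and how multi-mapping reads were treated is not given in the sources used here. TCEANC2 starts 79 bases from TMEM59 and TCEA2 196 bases from SOX18, both on the opposite strand and without overlap in the annotation. For TCEA2 the distance is from its outermost annotated start, and its RefSeq promoter windows end further away, at 64056971 and 64063197. The strand setting of the counting is not given either, and it bears on genes that overlap on opposite strands. On the opposite strand, annotated pseudogenes overlap TCEA1 over 2980 bases, TCEA3 over 1315 and TCEANC2 over 257. On the same strand, a long noncoding RNA overlaps TCEA2 over 282 bases and a pseudogene overlaps TCEANC2 over 238. None of these overlapping genes was counted.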

How the data were processed

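Poly(A) RNA libraries were made with the Tecan Universal Plus mRNA-Seq kit. Per the labels, the authors used STAR 2.7.3, SAMtools 1.8 and featureCounts with GRCh38.p13, and the deposited values are raw counts of reads per gene in 12 libraries. The annotation release, the strand setting and the treatment of multi-mapping reads are not given in the sources used here. The control is LifeAct-Dendra2 in the labels, which were followed, and pCDNA in the methods.

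Counts were fitted in R 4.3.3 with edgeR 4.0.16 (quasi-likelihood test, robust, TMM scaling, filter with a minimum count of 10 and a minimum total of 15), construct and replicate number being terms, with 6 residual degrees of freedom. P-values were Benjamini-Hochberg adjusted over 17176 genes, with 0.05 as the threshold, and SE and 95% intervals come from this fit. The script was tested on simulated data. Alternatives were DESeq2 1.42.0, RLE scaling, other filters, PEG10 left out, 6 libraries only, no replicate number and libraries left out. Depth was 30625725 to 45316749 counts per library.

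Whether numbers pair libraries was checked after construct means were removed: 18 same-number pairs correlated at 0.138 to 0.539 and 36 different-number pairs at -0.498 to 0.0720, so number was kept as a block. The members, gene lists and tests were chosen with earlier results of these data known. Genes named are the 5 members, PEG10 and the counted genes overlapping or nearest to the members. Also named are the 3 genes with the most similar profile for each member (mean log2 CPM of at least 1). Per list and comparison with control, up to 3 rises and 3 falls among called genes are named. Of the 64 listed genes, 5 were found under older symbols. Kidney-lineage and other cell type markers were added as a check. Exon lengths and positions come from GENCODE release 44 and promoters from RefSeq on GRCh38.p14. Proteins were translated from the reference transcripts and aligned with Biopython 1.88.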

Additional observations from a re-analysis of the deposited data

How the results depend on the processing

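The 5 members were refitted under 22 alternatives, 7 that keep all numbered libraries or only those compared and 15 that leave libraries out. Of 30 log2 fold changes (5 members, 6 contrasts), 23 kept their sign in every fit. The 30 include the TCEANC contrasts with the control or NC libraries it was selected on. Nothing is read from their kept sign, since the selection required a rise with NC in all 3 replicates. TCEANC ran from 1.18 to 1.63 for NC against control and 0.58 to 1.07 for gag against control. For gag-pol against control it ran from 0.49 to 1.04, highest without all libraries numbered 2. No member was called in gag-pol against control, gag against control, gag-pol against gag or NC against gag-pol under any alternative. In NC against gag, leaving libraries out gave 0 to 1 member called, and for replicate number 0 to 3, with 0 without replicate 1. Without the replicate block the elongation genes called were 0 for gag-pol and 0 for NC against control, against 11 and 13 with it, and TCEA2 in gag-pol against gag was -0.0055. With at least 10 counts in every library that TCEA2 value was -0.0025. With only 6 libraries, 5 elongation genes were called for gag-pol. Leaving libraries out gave 2 to 14 for gag-pol, 2 to 14 for NC and 0 to 1 for gag. Small values changed sign when libraries were left out: TCEANC2 in gag against control (-0.0135 to 0.15), TCEA2 in NC against control (-0.17 to 0.10), TCEA3 in NC against control (-0.23 to 0.20), TCEA2 in gag-pol against gag (-0.0888 to 0.13), TCEANC in gag-pol against gag (-0.22 to 0.0736), TCEA3 in NC against gag (-0.12 to 0.47), TCEANC2 in NC against gag (-0.0289 to 0.0486) and RAB9A in gag-pol against control (-0.0571 to 0.0114). The cause was not tested. For TCEANC and TCEA3 the spread between replicates exceeded counting noise, and a detection limit was not tested.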

Other observations

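The genes nearest to the other members gave 2 calls against control, both with gag-pol. TMEM59, a membrane protein gene that starts 79 bases from TCEANC2 on the opposite strand, fell by 0.43 on the log2 scale with gag-pol (-0.43 ± 0.09, adjusted p = 0.00384, edgeR), in all 12 fits that leave out 1 library, but not without the libraries numbered 1 (adjusted p = 0.100) or without the replicate number. It was -0.30 with gag (adjusted p = 0.107) and -0.18 with NC (adjusted p = 0.203), while TCEANC2 itself was -0.14, 0.07 and 0.08 in the same order. SOX18, a transcription factor of endothelial development 196 bases from TCEA2 on the opposite strand, was 0.49 ± 0.14 higher with gag-pol (adjusted p = 0.0249), a call kept in 8 of 12 such fits and lost without the replicate number, and TCEA2 was -0.24. RGS19, 833 bases from TCEA2, RGS20, 7248 bases from TCEA1, and ASAP3, 3814 bases from TCEA3, were called in none of the 6 contrasts, and MIR4781, inside TCEANC2, had at most 1 count in a library. A difference between a member and its neighbour was not tested.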
